A study of Mus musculus with 13 samples.

Results

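The nuclear-encoded subunit genes of the oxidative phosphorylation machinery were examined in common lymphoid progenitors (CLPs) sorted from mouse bone marrow. A gene was included if its name begins with Nduf followed by a, b, c, s, or v and a digit, with Uqcr, with Cox followed by a digit from 4 to 8, or with Atp5, or if it is Sdha, Sdhb, Sdhc, Sdhd, Cyc1, or Cycs. These names picked 87 of the 24972 genes in the deposited tables, of which 36 belong to complex I, 4 to complex II, 9 to complex III, 20 to complex IV, and 17 to complex V, and 1 (Cycs) encodes cytochrome c. Among those of complex I is Ndufb4c, which the names admit but GENCODE annotates as a processed pseudogene and which is a near-identical copy of Ndufb4. RNA came from 5 WT, 5 Notch1+/-, and 3 Notch1+/dTAD adult C57BL/6 mice of 6 to 12 weeks of age, with 1 library per mouse and no treatment. Cells of all 3 genotypes were sorted as DAPI-, Lin-, Sca1Lo, cKitLo, CD127+, CD135+. Notch1+/- mice carry 1 functional Notch1 allele and Notch1+/dTAD mice carry 1 allele without the transactivation domain, in every cell of the animal rather than in CLPs alone. Values are TPM, a length-scaled measure of transcript abundance, from strand-specific 3′ RNA-Seq, which sum to 1000000 in each library. The depth behind them is unknown, and a value of 0 is given here as listed at 0, since Gapdh, which nearly all cells use, was itself listed at 0 in 2 of the 13 libraries.

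Oxidative phosphorylation is carried out in the inner mitochondrial membrane. Complexes I and II take electrons from NADH and succinate, complex III passes them to cytochrome c, complex IV hands them to oxygen, and complex V, the ATP synthase, uses the resulting proton gradient to make ATP. Most subunits are encoded in the nucleus, and a small set, including core parts of complexes I, III, IV, and V, is encoded in mitochondrial DNA. Of 13 mitochondrially encoded subunit genes, 0 were in the deposited tables under the names looked up, so they could not be analysed here. Complex II has nuclear-encoded subunits alone. Lymphoid progenitors use both glycolysis and mitochondrial respiration, and nuclear respiratory factor 1 (NRF1), GA-binding protein (GABP), and YY1 are known regulators of respiratory chain promoters.

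The promoters of these genes were searched for the letters of these 3 factors' motifs. Promoter sequences (250 bases before to 50 after the annotated start, RefSeq, GRCm38.p6) were matched by symbol for 67 of the 87 genes. The letters GCGCATGCG, searched on both strands as the NRF1 motif, were in a promoter of 9 of the 67 genes, or 13.4%. This was beside 4.57% of 8035 genes above 0 TPM in any library and 1.95% of all 27025 genes with a promoter. The YY1 letters AAGATGGCG were found for 7 genes (10.4%, beside 4.06% and 1.64%), and the GABP letters CCGGAAGT for 5 (7.46%, beside 10.2% and 4.31%). At least 1 of the motifs was found for 20 genes, or 29.9%, beside 17.7% and 7.48%. NRF1 and its reverse complement overlap in most of these sites because the motif is nearly a palindrome, and each gene was counted once. The windows below are shown for Atp5k, which had the highest TPM of the set, for Uqcr11, which holds 2 of the motifs, for Cox6a1, for Cycs, the electron carrier, and for Cox8a. Capitals mark the motif or its reverse complement.
Atp5k, NRF1, minus strand, chr5:108434431-108434458: ttcactgcgGCGCATGCGcctttctggc
Uqcr11, NRF1, minus strand, chr10:80406808-80406835: tcgccttcaCGCATGCGCtatacgtctg
Uqcr11, GABP, minus strand, chr10:80406870-80406897: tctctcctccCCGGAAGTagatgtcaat
Cox6a1, NRF1, minus strand, chr5:115349102-115349129: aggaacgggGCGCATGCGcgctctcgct
Cycs, NRF1, minus strand, chr6:50566612-50566639: atgctagctCGCATGCGCgcgcacaaac
Cox8a, GABP, minus strand, chr19:7217605-7217632: tttccgaaatACTTCCGGctcgggcgtc
The matches describe letters in a window and were not tested as binding sites.

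Libraries differed in how many genes they listed above 0, from 3264 in Notch1+/- library 6 to 6326 in Notch1+/- library 13. All 8 markers of a CLP list were above 0 in at least 1 library, and their summed TPM was 2535 to 10556. The list holds genes of the sort gate (Il7r, Flt3, Kit, and Ly6a) and others that were not sorted on (Ly6d, Dntt, Rag1, and Rag2). Of the lists of other cell types, 7 of 8 B lineage markers (summed TPM 4.95 to 1839), 8 of 8 myeloid markers (212 to 2067), 1 of 8 erythroid markers (0 to 17.6), and 3 of 8 T and NK cell markers (0 to 1309) were above 0 in any library. Ms4a1, Cd3e, Cd3g, Cd8a, and Klf1 were at 0 in all 13 libraries. No marker passed an adjusted p of 0.05 in any comparison. In Notch1+/dTAD against Notch1+/-, 2 of 7 myeloid markers tested and Ly6d had an unadjusted limma p under 0.05, beside 5.33% of all genes. The 2 were S100a9 and Lyz2 (log2 fold changes 6.06 and 3.48), and Ly6d, which is not part of the sort gate, was at 1.62. Both myeloid markers overlapped between the mutants, whereas Ly6d did not. Ly6d was at 1801 to 2302 TPM in Notch1+/dTAD and at 194 to 1538 TPM in Notch1+/- libraries. Such a lack of overlap, higher in Notch1+/dTAD, was found for 2.44% of all genes. WT libraries, at 271 to 2559 TPM, overlapped both mutants for Ly6d. S100a9 was at 1001 TPM in Notch1+/- library 6, above all Notch1+/dTAD libraries, and Lyz2 was at 0 in Notch1+/dTAD library 9. The median log2 fold change of the myeloid list was 2.35. Against WT, the median in Notch1+/dTAD was 1.46 for the myeloid list and 2.56 for 5 B lineage markers, with 0 of either at that p. Summed myeloid TPM was 436 to 2067 in WT, 212 to 1257 in Notch1+/-, and 272 to 1773 in Notch1+/dTAD libraries, and summed B lineage TPM was 4.95 to 897, 14.5 to 1839, and 79.5 to 1555 in the same order, so that the genotypes overlapped in both. The part of these cells in the results below was not tested. Notch1 itself was between 0 and 25.7 TPM in WT, between 9.27 and 78.5 TPM in Notch1+/-, and between 0.893 and 35.0 TPM in Notch1+/dTAD libraries, so its level does not check the labels.

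A larger share of the 87 genes than of the whole table was listed above 0 throughout. In all 13 libraries, 21 of the 87 (24.1%) were above 0, beside 772 of 24972 genes (3.09%), and 5 of the 87 (5.75%) were at 0 in every library, beside 59.4% of all genes. Complex V had the largest share above 0 in all 13, with 7 of 17 genes (41.2%), followed by complex IV (7 of 20, 35.0%), complex III (2 of 9, 22.2%), complex I (5 of 36, 13.9%), and complex II (0 of 4). The 21 genes were Ndufa2, Ndufa6, Ndufb3, Ndufb8, and Ndufc1 of complex I, Uqcr10 and Uqcr11 of complex III, Cox6a1, Cox6a2, Cox6b1, Cox6c, Cox7a2l, Cox7c, and Cox8a of complex IV, and Atp5a1, Atp5b, Atp5f1, Atp5g2, Atp5g3, Atp5j, and Atp5mpl of complex V. A library listed between 42 (Notch1+/- library 6) and 74 (WT library 1) of the 87 above 0. These numbers were 53 to 74 in WT, 42 to 73 in Notch1+/-, and 66 to 72 in Notch1+/dTAD libraries, and the 3 ranges overlap.

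**Figure D1:**
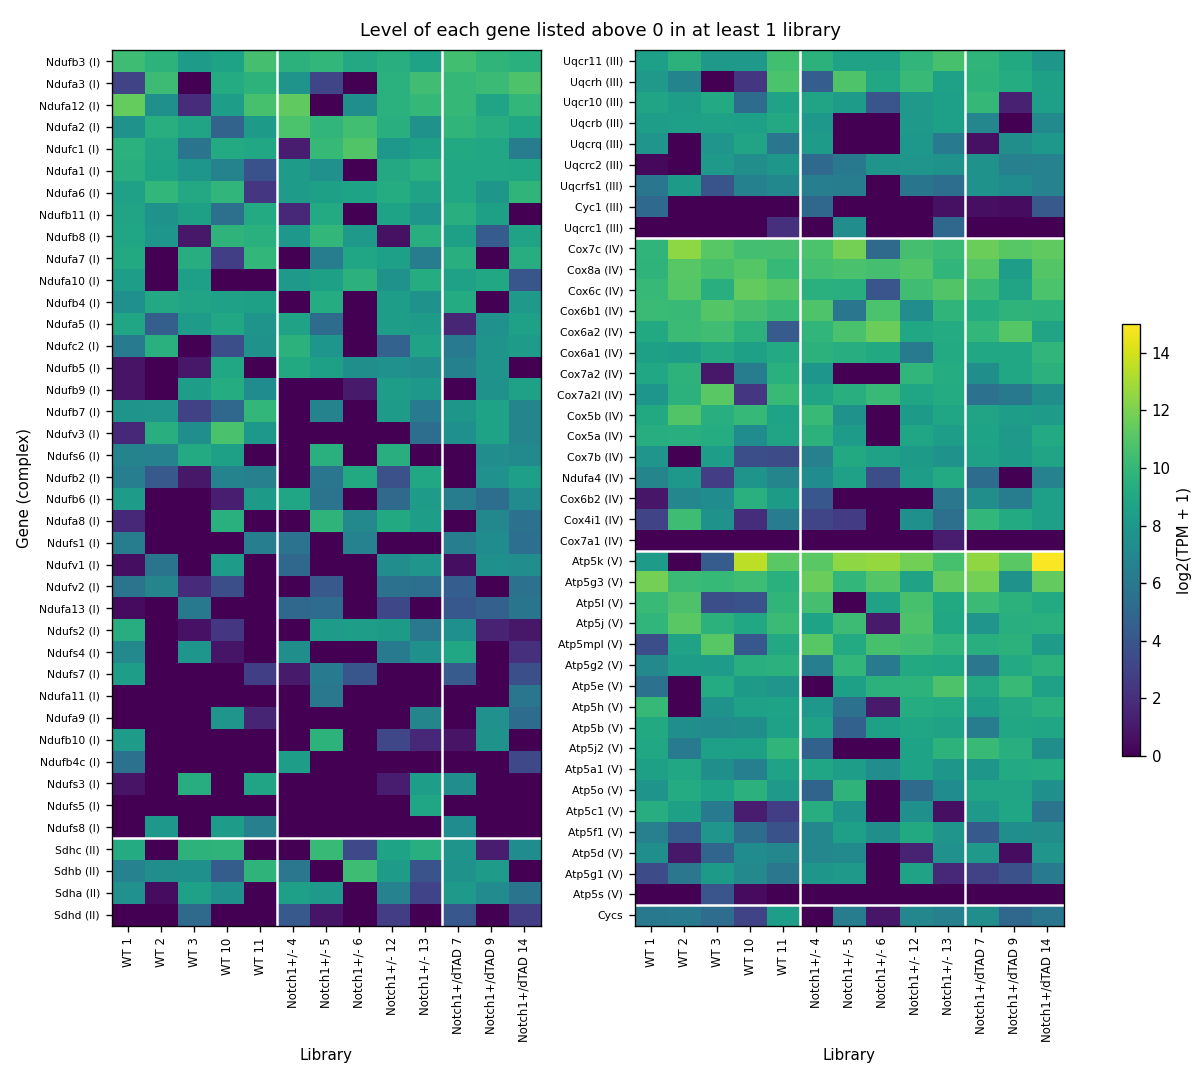
Levels of the 82 subunit genes listed above 0 in at least 1 library, as log2(TPM + 1) in color, with 1 column per library and 1 row per gene ordered by complex and then by median TPM. White lines separate genotypes and complexes. Dark cells are values at or near 0, which are frequent in the lower rows of complex I and in Notch1+/- library 6, where 42 of the 87 genes were above 0.

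Together the 87 genes held 2.86% to 6.13% of the TPM of a library, with a median of 3.44%. Their summed TPM was 30809, 36429, 28600, 39919, and 34537 in WT libraries 1, 2, 3, 10, and 11, 33983, 36743, 30220, 34447, and 34197 in Notch1+/- libraries 4, 5, 6, 12, and 13, and 40987, 28622, and 61320 in Notch1+/dTAD libraries 7, 9, and 14. Means were 34059 ± 4487 TPM (SD, n = 5) in WT, 33918 ± 2346 TPM (SD, n = 5) in Notch1+/-, and 43643 ± 16510 TPM (SD, n = 3) in Notch1+/dTAD. Notch1+/dTAD libraries 7 and 14 were above every library of the other genotypes, whereas library 9 was near the lowest WT library. The log2 ratio of mean sums was 0.36 for Notch1+/dTAD against WT, -0.01 for Notch1+/- against WT, and 0.36 for Notch1+/dTAD against Notch1+/-. Without Notch1+/dTAD library 14 the ratios that include this genotype were 0.03 and 0.04. In RNA from sorted populations, fewer cells of a type and less RNA per cell cannot be told apart.

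Atp5k alone accounted for the high sum of Notch1+/dTAD library 14. Atp5k encodes subunit e of the membrane part of ATP synthase, which helps the enzyme form dimers, and lies at chr5:108433244-108434448 on the minus strand of GRCm38 with 616 bases of exon. It was at 30587 TPM in Notch1+/dTAD library 14, and at 5832 and 2264 TPM in libraries 7 and 9 of that genotype. In WT it was at 295, 0, 19.5, 11702, and 2264 TPM, and in Notch1+/- at 2323, 5550, 6414, 3546, and 1604 TPM. It was the highest gene of the set in 8 of the 13 libraries, and WT libraries spanned every value below that of Notch1+/dTAD library 14. Without Atp5k, the set summed to 31203 ± 3344 TPM in WT (SD, n = 5), 30030 ± 3538 TPM in Notch1+/- (SD, n = 5), and 30749 ± 4398 TPM in Notch1+/dTAD (SD, n = 3), and the log2 ratio against WT for Notch1+/dTAD became -0.02.

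**Figure D2:**
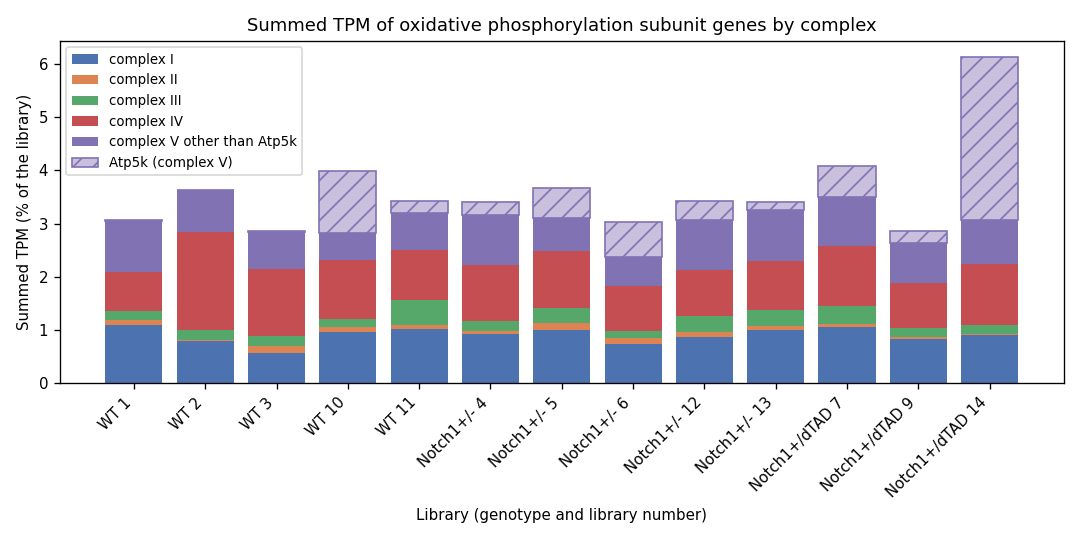
Summed TPM of the subunit genes as a percentage of each library's TPM, stacked by complex, with Atp5k hatched at the top of each bar. Bars are libraries named by genotype and library number, and Cycs, at most 0.032%, is left out. Bars without the hatched part lie between 2.38% and 3.64%, and the tallest bar, Notch1+/dTAD library 14 at 6.13% with Atp5k, is at 3.07% without it.

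By complex, the sums were of like size in complexes I, IV, and V and lower in complexes III and II. Over the 13 libraries the median sum was 9351 TPM for complex I (5656 to 10990), 835 TPM for complex II (168 to 1440), 1870 TPM for complex III (1133 to 4520), 10368 TPM for complex IV (7230 to 18477), and 11877 TPM for complex V (6979 to 38783). Complex I has many more subunit genes than complex II, and the median over genes of the median TPM was 108 in complex I, 157 in complex II, 172 in complex III, 358 in complex IV, and 385 in complex V, beside 173 over the whole set. Within complex I, the 7 core subunits, which carry the flavin and iron-sulfur centers, summed to 84.2 to 1122 TPM (median 499), whereas the 29 accessory subunits, with Ndufb4c counted among them, summed to 5011 to 9867 TPM (median 8989). TPM divides by transcript length whereas 3′ reads do not grow with it, and these genes are short, with a median of 1631 exon bases beside 4504 for all genes above 0. Over the 82 genes above 0, Spearman's rho of median TPM and exon length was -0.18, given as a description across genes that share libraries.

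Spread within a genotype was wide for most of these genes. The pooled SD of log2(TPM + 1) within genotypes had a median of 3.02 over the 78 genes with at least 1 TPM in 3 or more libraries, beside 2.46 over all 6281 such genes. Over the 21 genes above 0 in all 13 libraries the median SD was 1.54, beside 1.22 over the 772 such genes of the table. The steadiest was Ndufb3, a small accessory subunit of the membrane arm of complex I and the highest complex I gene by median, with an SD of 0.74. Its level was 1300, 829, 304, 420, and 1503 TPM in WT, 789, 971, 522, 687, and 416 TPM in Notch1+/-, and 1417, 892, and 721 TPM in Notch1+/dTAD libraries. All 3 genotypes overlapped.

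Cox8a and Atp5a1 were nearly as steady, each with an SD of 0.83. Cox8a encodes the broadly expressed isoform of a small complex IV subunit and Atp5a1 the alpha subunit of the catalytic head of ATP synthase. Cox8a was at 861, 2208, 1591, 2085, and 1065 TPM in WT, 1445, 1652, 1530, 1959, and 947 TPM in Notch1+/-, and 2155, 324, and 2013 TPM in Notch1+/dTAD libraries. Atp5a1 was at 362, 517, 177, 88.9, and 399 TPM, at 463, 338, 160, 413, and 242 TPM, and at 246, 583, and 587 TPM in the same order. The genotypes overlapped in both genes. At the other end, Sdhc, a membrane anchor of complex II, had the largest SD (4.65) and was listed at 0 in 2 WT libraries and 1 Notch1+/- library while reaching 869 and 1115 TPM in others.

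Of the highest genes of the remaining complexes, Uqcr11, a small subunit of complex III, was at 347, 810, 277, 263, and 1410 TPM in WT, 797, 403, 400, 923, and 1579 TPM in Notch1+/-, and 904, 558, and 245 TPM in Notch1+/dTAD libraries. Cox7c, a small subunit of complex IV, was at 906, 5598, 2165, 1453, and 1545 TPM, at 1726, 3764, 35.4, 1515, and 1207 TPM, and at 3200, 2184, and 2584 TPM in the same order. Genotypes overlapped for both, and the lowest Cox7c value was that of Notch1+/- library 6. Cox7c has a near-identical annotated copy, Gm12338, which is listed in the same table at 2.40 to 1390 TPM and below Cox7c in all 13 libraries, so reads may have been split between them.

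Among complex II and the cytochrome genes, Sdhd and Cyc1 had gaps in many libraries. Sdha, Sdhb, Sdhc, and Cycs were above 0 in 10 to 12 of the 13. Sdha, the flavoprotein that oxidizes succinate, was at 191, 0.405, 386, 185, and 0 TPM in WT, 349, 264, 0, 99.7, and 7.00 TPM in Notch1+/-, and 261, 147, and 52.9 TPM in Notch1+/dTAD libraries. Sdhb, the iron-sulfur subunit, was at 101, 167, 186, 20.4, and 849 TPM, at 61.2, 0, 1300, 310, and 13.1 TPM, and at 198, 314, and 0 TPM in the same order. Sdhd, the other membrane anchor, was above 0 in 6 libraries and at most 35.5 TPM. No genotype stood apart in any of the 4 genes.

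Cycs, which encodes the somatic cytochrome c, was at 64.8, 71.4, 40.1, 7.43, and 320 TPM in WT, 0, 80.7, 0.841, 121, and 92.0 TPM in Notch1+/-, and 171, 31.3, and 57.4 TPM in Notch1+/dTAD libraries. Cyc1, the cytochrome c1 of complex III, was above 0 in 6 libraries, with 33.9 TPM in WT library 1, 31.7 TPM in Notch1+/- library 4, and 16.9 TPM in Notch1+/dTAD library 14 as its highest values. Both genes overlapped between genotypes. Their adjusted p-values, by limma, were 0.993 to 0.997 in the comparisons in which they were tested, and Cyc1 passed the filter on low values in the comparison of the 2 mutants alone.

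Several subunits of complexes IV and V exist as isoforms with known tissue preferences, and most tissue-restricted isoforms were listed at or near 0. Cox4i2 (a lung isoform induced by low oxygen), Cox7b2 and Cox8c (testis isoforms), Cox8b (a heart and muscle isoform), and Ndufa4l2 (induced by low oxygen) were the 5 genes at 0 in all 13 libraries. Cox7a1, a heart and muscle isoform, was above 0 in 1 library, at 1.18 TPM. Their broadly expressed relatives Cox4i1, Cox7a2, Cox7b, Cox8a, and Ndufa4 were above 0 in 11 to 13 libraries each.

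Cox6a2 and Cox6b2 went against that pattern. Cox6a2, known as the heart and skeletal muscle isoform of subunit 6a, was above 0 in all 13 libraries, at 558, 1175, 1344, 784, and 18.8 TPM in WT, 949, 1643, 3165, 519, and 590 TPM in Notch1+/-, and 987, 2083, and 425 TPM in Notch1+/dTAD libraries. Cox6a1, the broadly expressed isoform, was at 368, 327, 537, 374, and 571 TPM, at 809, 644, 551, 69.7, and 568 TPM, and at 497, 497, and 919 TPM in the same order. Cox6a2 exceeded Cox6a1 in 11 of 13 libraries, all but WT library 11 and Notch1+/dTAD library 14, with a median difference of 1.06 on the log2(TPM + 1) scale, and in all 3 genotypes the ranges of the 2 genes overlapped. Both have exons of like length (680 and 702 bases). Cox6a2 lies at chr7:128205435-128206387 on the minus strand of GRCm38 and overlaps Itgad on the other strand, and Itgad was at 0 in all 13 libraries.

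Cox6b2, known as the testis isoform of subunit 6b, was above 0 in 10 libraries and overlaps no other annotated gene. Its broadly expressed relative Cox6b1 was higher in all 13 libraries, with a median difference of 3.72 on the log2(TPM + 1) scale. The genes Atp5g1, Atp5g2, and Atp5g3 encode the same mature c subunit of the proton-conducting ring with different import sequences. Atp5g3 was the highest by median (1310 TPM, 200 to 3734), followed by Atp5g2 (479 TPM, 61.3 to 990) and Atp5g1 (61.6 TPM, 0 to 397). Atp5g3 exceeded Atp5g1 in 13 and Atp5g2 in 9 of 13 libraries, and Atp5g2 exceeded Atp5g1 in 12. Atp5g3, Atp5g2, and Atp5g1 have 2181, 1675, and 4912 bases of exon. A near-identical stretch was annotated in 0, 2, and 7 other genes in the same order. The part of length and copies in this ranking was not tested.

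Near-identical copies touched other members as well. An annotated transcript that matched at least 75 bases at 97% identity or more was found for 27 of the 87 genes. Ndufs5, an accessory subunit of complex I, was above 0 in a single library (463 TPM in Notch1+/- library 13), whereas its near-identical copy BC002163 was above 0 in 11 libraries and reached 438 TPM. Which of both loci gave these transcripts cannot be told from the tables. In addition, 12 members overlap another gene on the same strand and 29 on the other strand, and the sources used here do not say whether strand was used to assign reads.

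**Figure D3:**
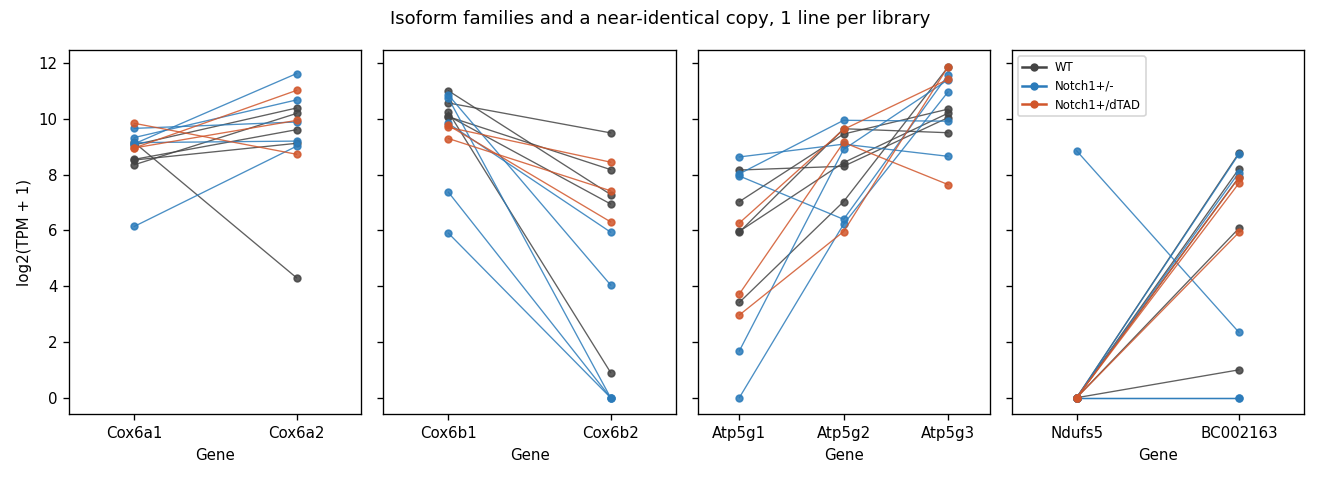
Levels of isoform families and of Ndufs5 beside its near-identical copy BC002163, as log2(TPM + 1), with 1 line per library colored by genotype. Most lines rise from Cox6a1 to Cox6a2 (11 of 13), fall from Cox6b1 to Cox6b2 (13 of 13), and rise from Atp5g1 to Atp5g3 (13 of 13), and Ndufs5 is at 0 in 12 of the 13 libraries.

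The genotypes were then compared to ask whether subunit genes differ with loss of 1 Notch1 allele or with its truncation. In Notch1+/dTAD against WT CLPs, none of the tested subunit genes passed an adjusted p of 0.05 by limma with Benjamini-Hochberg adjustment over all genes. The 74 genes tested had 0 calls, beside 0 of 4737 genes (0.00%), and the lowest adjusted p was that of Uqcrb (0.836). Unadjusted, 3 subunit genes had a p under 0.05, or 4.05% beside 5.00% of all genes. Of these, 2 were higher (Atp5k and Cox7b, 2.70% beside 4.14%) and 1 was lower (Uqcrb, 1.35% beside 0.866%). Without the mean-variance trend there were 2 of 74 (2.70%, beside 5.49%), and 15 of the 4737 genes, with 0 subunit genes among them, passed the adjusted threshold. The median log2 fold change over the 74 genes was 0.48, beside 0.47 over all genes, and 47 of the 74 were above 0 (63.5%, beside 61.8%). With quantile normalization the medians were 0.28 and -0.03. By complex the medians were 0.67 for complex I (32 genes), 0.44 for complex II (4 genes), 0.02 for complex III (7 genes), 0.15 for complex IV (14 genes), and 0.68 for complex V (16 genes). Genes listed above 0 numbered 4706 to 5764 in Notch1+/dTAD and 3744 to 4614 in WT libraries, and the part of this difference in the medians was not tested.

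For 2 subunit genes every Notch1+/dTAD library was below every WT library, which is 2.70% of those tested beside 0.739% of all genes. No subunit gene lay above all WT libraries, beside 2.39% of all genes, and 3.12% of all genes were apart in either direction. Uqcrb, a small subunit of complex III at the site where ubiquinone binds, was at 338, 348, 389, 356, and 528 TPM in WT and at 120, 0, and 139 TPM in Notch1+/dTAD libraries. WT values were close to each other and all above the mutant values. The log2 fold change was -3.92 ± 1.43 (SE, adjusted p = 0.836 by limma), and it was -1.57 without Notch1+/dTAD library 9, which is at 0. In Notch1+/- libraries, compared with the same WT libraries, Uqcrb was at 251, 0, 0, 265, and 358 TPM, and the groups overlapped. Uqcrb lies at chr13:66900617-66905378 on the minus strand and has 3 near-identical annotated copies.

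Cox6b1, which sits on the intermembrane face of complex IV, was at 1214, 1103, 2065, 1524, and 1083 TPM in WT and at 629, 872, and 831 TPM in Notch1+/dTAD libraries. The log2 fold change was -0.82 ± 0.43 (SE, adjusted p = 0.952 by limma), with a range of -0.90 to -0.66 when each library was left out. Cox6b1 was named for its lack of overlap, so its direction could not change in that check, which lends no support. Notch1+/- libraries, at 1860, 58.9, 1717, 165, and 916 TPM, overlapped both of these genotypes. Cox5b, a complex IV subunit that binds zinc, was at 549, 1980, 686, 1077, and 417 TPM in WT and 433, 325, and 318 TPM in Notch1+/dTAD libraries, with overlap at the lowest WT library (log2 fold change -1.18 ± 0.62 SE, adjusted p = 0.952 by limma).

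Of the genes with higher values in Notch1+/dTAD, Atp5k had a log2 fold change of 5.41 ± 2.24 (SE, adjusted p = 0.943 by limma), with WT library 10 and WT library 11 inside or at the edge of the Notch1+/dTAD range. Cox7b, a small subunit of complex IV encoded on the X chromosome, was at 221, 0, 332, 11.3, and 9.96 TPM in WT and at 385, 286, and 440 TPM in Notch1+/dTAD libraries (log2 fold change 3.86 ± 1.74 SE, adjusted p = 0.952 by limma). Its groups overlapped by WT library 3. Cox4i1, the broadly expressed isoform of the regulatory subunit 4, was at 7.45, 1272, 212, 2.83, and 77.1 TPM in WT and at 975, 566, and 353 TPM in Notch1+/dTAD libraries (log2 fold change 3.31 ± 1.61 SE, adjusted p = 0.952 by limma). WT library 2 was above all Notch1+/dTAD libraries.

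**Figure D4:**
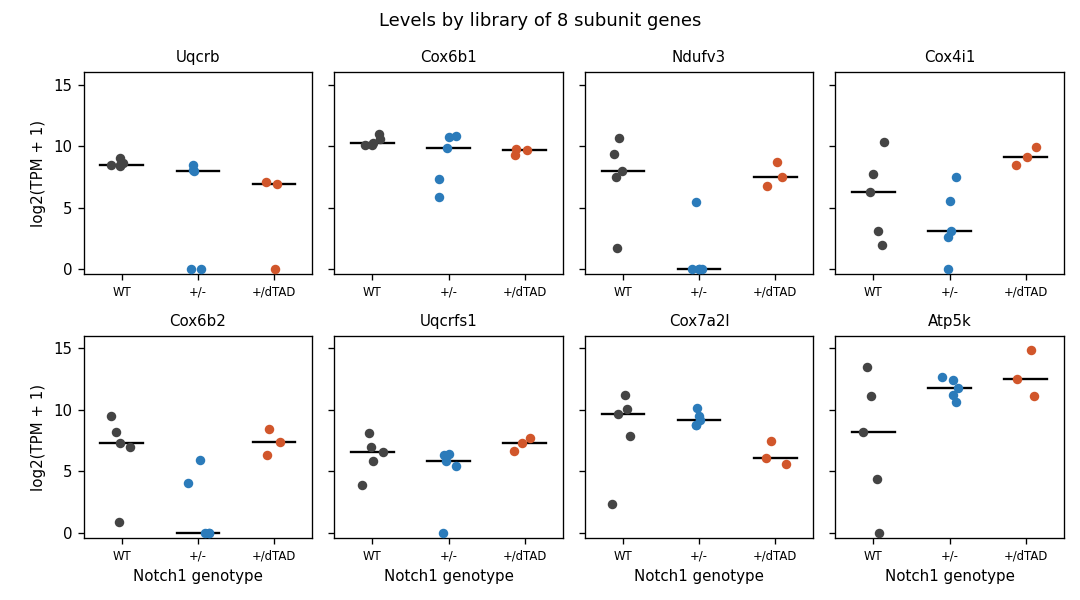
Levels of 8 subunit genes in each library by Notch1 genotype, as log2(TPM + 1), with a bar at the median of each genotype. Points are libraries (5 WT, 5 Notch1+/-, 3 Notch1+/dTAD). Uqcrb and Cox6b1 are lower in all Notch1+/dTAD than in all WT libraries, and Ndufv3, Cox4i1, Cox6b2, and Uqcrfs1 are higher and Cox7a2l lower in all Notch1+/dTAD than in all Notch1+/- libraries.

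In Notch1+/- against WT CLPs, no subunit gene passed either, but a larger share had a low unadjusted p. The 68 genes tested had 0 calls, beside 0 of 3178 genes (0.00%), and the lowest adjusted p was that of Ndufb5 (0.562). Unadjusted, 11 subunit genes had a p under 0.05, 7 higher (Ndufb5, Ndufa10, Ndufa2, Atp5f1, Atp5mpl, Atp5k, and Cox7b) and 4 lower (Ndufv3, Cox6b2, Atp5o, and Uqcrb). They were 16.2% of those tested (10.3% higher and 5.88% lower), beside 5.35% of all genes (2.67% higher and 2.67% lower). This number moved with the processing. It was 6 of 68 (8.82%, beside 5.51%) without the mean-variance trend, a setting in which 2 of the 3178 genes and 0 subunit genes passed the adjusted threshold. It was also 6 without WT library 10 (8.33%, beside 5.47%) or without Notch1+/- library 5 (8.57%, beside 4.95%). Without Notch1+/- library 6 it was 6 as well (8.45%, beside 5.37%). The highest number was 16, with a filter at a mean of 10 TPM (20.8%, beside 4.33%). The groups overlapped for all 68 genes, whereas 0.787% of all genes were without overlap (0.409% higher and 0.378% lower).

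The median log2 fold change over the 68 genes was -0.25, beside 0.06 over all genes, and 29 of the 68 were above 0 (42.6%, beside 51.4%). It was 0.12 without WT library 1, which listed the most subunit genes, and 0.01 without Notch1+/- library 6, which listed the fewest, so its direction rested on single libraries. By complex the medians were -0.17 for complex I (27 genes), 0.39 for complex II (3 genes), -0.57 for complex III (7 genes), -1.31 for complex IV (14 genes), and -0.26 for complex V (16 genes).

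The accessory complex I subunits gave the extremes in both directions. Ndufb5, in the membrane arm, was at 0.745, 0, 0.937, 492, and 0 TPM in WT and at 563, 361, 174, 194, and 164 TPM in Notch1+/- libraries (log2 fold change 5.87 ± 1.67 SE, adjusted p = 0.562 by limma). All but WT library 10 lay below the Notch1+/- range. Ndufa10 was at 332, 0, 357, 0, and 0 TPM in WT and at 279, 365, 796, 204, and 614 TPM in Notch1+/- libraries (log2 fold change 5.27 ± 1.78 SE, adjusted p = 0.756 by limma), with WT libraries 1 and 3 inside that range. Ndufv3, a flavoprotein accessory subunit next to the NADH-binding end of complex I, was at 2.36, 669, 175, 1632, and 254 TPM in WT and at 0, 0, 0, 0, and 42.3 TPM in Notch1+/- libraries (log2 fold change -6.36 ± 1.84 SE, adjusted p = 0.588 by limma). The groups overlapped by WT library 1. Ndufv3 lies at chr17:31520115-31531331 on the plus strand, has no annotated near-identical copy, and overlaps no other annotated gene, whereas Ndufb5 overlaps Mrpl47 on the other strand.

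In complexes IV and V, Cox6b2 was at 0.870, 123, 155, 724, and 290 TPM in WT and at 15.5, 0, 0, 0, and 60.4 TPM in Notch1+/- libraries (log2 fold change -4.57 ± 1.88 SE, adjusted p = 0.853 by limma). WT library 1 lay inside the Notch1+/- range. Atp5o, the stalk subunit that gives ATP synthase its oligomycin sensitivity, was at 214, 610, 417, 799, and 278 TPM in WT and at 27.3, 868, 0, 36.0, and 159 TPM in Notch1+/- libraries (log2 fold change -3.27 ± 1.41 SE, adjusted p = 0.892 by limma). Notch1+/- library 5 was above every WT library for Atp5o. Atp5f1, which encodes the b subunit of the peripheral stalk, was at 92.0, 19.4, 228, 37.7, and 12.1 TPM in WT and at 124, 356, 180, 563, and 223 TPM in Notch1+/- libraries (log2 fold change 2.43 ± 0.99 SE, adjusted p = 0.853 by limma), and WT library 3 lay inside the Notch1+/- range.

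**Figure D5:**
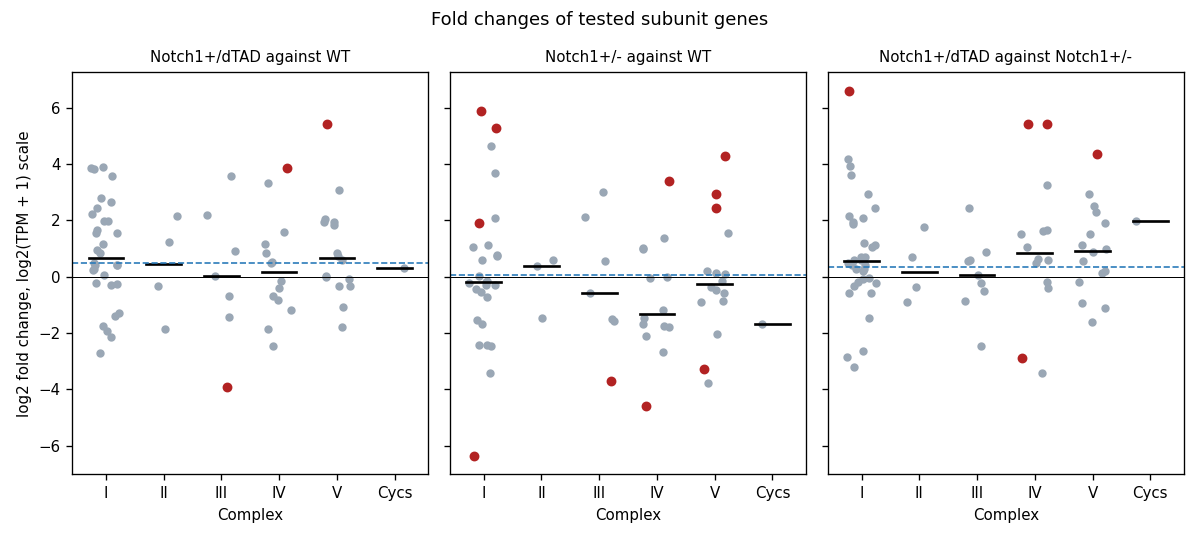
Log2 fold changes of tested subunit genes by complex in the 3 comparisons, on the log2(TPM + 1) scale. Each point is a gene, red where the unadjusted limma p was under 0.05 (3, 11, and 5 genes), black bars are medians by complex, and the dashed line is the median of all genes tested (0.47, 0.06, and 0.35).

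In Notch1+/dTAD against Notch1+/- CLPs, in 1 model of the 13 libraries, 78 subunit genes were tested with 0 calls, beside 0 of 6281 genes (0.00%), and the lowest adjusted p was that of Ndufv3 (0.681). Unadjusted, 5 subunit genes had a p under 0.05, or 6.41% beside 5.33% of all genes, and 3 had one (3.85%, beside 5.43%) without the trend, where 3 of the 6281 genes and 0 subunit genes passed the adjusted threshold. Of the 5, 4 were higher (Ndufv3, Cox4i1, Cox6b2, and Atp5j2, 5.13% beside 4.09%) and 1 was lower (Cox7a2l, 1.28% beside 1.24%). The median log2 fold change was 0.58, beside 0.35 over all genes, and 53 of the 78 were above 0 (67.9%, beside 58.9%). With quantile normalization the medians were 0.43 and -0.02. By complex the medians were 0.54 for complex I (34 genes), 0.16 for complex II (4 genes), 0.06 for complex III (9 genes), 0.85 for complex IV (14 genes), and 0.93 for complex V (16 genes).

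The 2 mutants were apart for 5 genes (6.41% of those tested, beside 3.06% of all genes), of which 4 were higher in Notch1+/dTAD (5.13%, beside 2.44%) and 1 was lower (1.28%, beside 0.621%). Ndufv3, at 184, 423, and 110 TPM in Notch1+/dTAD libraries, was above its Notch1+/- values given before (log2 fold change 6.60 ± 1.89 SE, adjusted p = 0.681 by limma). Cox4i1, at 7.80, 5.09, 0, 183, and 44.5 TPM in Notch1+/- libraries, was below its Notch1+/dTAD values given before (log2 fold change 5.43 ± 1.85 SE, adjusted p = 0.932 by limma). Its WT libraries, from 2.83 to 1272 TPM, overlapped both. Cox4i1 overlaps Gm20388 on the same strand and Emc8 on the other.

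Cox6b2 was at 171, 78.2, and 349 TPM in Notch1+/dTAD libraries, all above the highest Notch1+/- library (log2 fold change 5.40 ± 1.93 SE, adjusted p = 0.932 by limma). Uqcrfs1, the Rieske iron-sulfur protein of complex III, was at 84.1, 78.3, 0, 55.5, and 41.9 TPM in Notch1+/- and at 205, 158, and 98.9 TPM in Notch1+/dTAD libraries (log2 fold change 2.42 ± 1.54 SE, adjusted p = 0.997 by limma). Cox7a2l is a relative of Cox7a2 and was left out where structural subunits were taken alone. It was at 427, 709, 1108, 446, and 589 TPM in Notch1+/- and at 47.7, 67.0, and 175 TPM in Notch1+/dTAD libraries (log2 fold change -2.88 ± 1.35 SE, adjusted p = 0.932 by limma). In WT, Cox7a2l was at 235, 797, 2323, 4.24, and 1088 TPM, which spans both mutants.

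Of the genes with overlap, Atp5j2, subunit f of the ATP synthase membrane part, was at 24.1, 0, 0, 422, and 828 TPM in Notch1+/- and at 1089, 681, and 175 TPM in Notch1+/dTAD libraries (log2 fold change 4.37 ± 1.81 SE, adjusted p = 0.932 by limma). Ndufa4, first assigned to complex I and now counted with complex IV, was at 154, 376, 11.3, 337, and 584 TPM in Notch1+/- and at 38.3, 0, and 99.0 TPM in Notch1+/dTAD libraries (log2 fold change -3.43 ± 1.67 SE, adjusted p = 0.941 by limma). Uqcrc1, a core protein of complex III, was above 0 in 3 libraries, 2 of them Notch1+/-, with a highest value of 160 TPM. Its log2 fold change was -2.47, with an adjusted p of 0.997 by limma.

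Other genes of the pathway showed no calls in any of the comparisons. Of 52 assembly factors, which build the complexes, 51 were in the tables, 48 were above 0 in any library and 22, 15, and 30 were tested in Notch1+/dTAD against WT, Notch1+/- against WT, and Notch1+/dTAD against Notch1+/-. An unadjusted p under 0.05 was found for 2 of 22, 2 of 15, and 1 of 30, beside 5.00%, 5.35%, and 5.33% of all genes. These were Ndufaf8 and Uqcc3 in Notch1+/dTAD against WT (log2 fold changes 4.40 and 5.12), Uqcc2 and Cox15 in Notch1+/- against WT (4.56 and -3.30), and Ndufaf8 in Notch1+/dTAD against Notch1+/- (4.57), with limma adjusted p-values of 0.892 to 0.952. Of 16 genes of the TCA cycle and pyruvate dehydrogenase, 11, 10, and 15 were tested, with 0, 0, and 1 at that threshold. The 1 was Dld, a subunit shared by dehydrogenase complexes, at 76.5, 0, 62.3, 0, and 70.5 TPM in Notch1+/- and at 0, 0.876, and 0 TPM in Notch1+/dTAD libraries (log2 fold change -3.38, adjusted p of 0.932 by limma), and the groups overlapped.

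All 6 carriers and channels of the mitochondrial membranes were tested in the 3 comparisons. An unadjusted p under 0.05 was found for 0, 0, and 1 of them, beside 5.00%, 5.35%, and 5.33% of all genes. The 1 was Vdac2, an outer membrane channel, at 0, 0, 0, 152, and 3.39 TPM in Notch1+/- and at 218, 148, and 124 TPM in Notch1+/dTAD libraries (log2 fold change 5.44, adjusted p = 0.932 by limma), with overlap at Notch1+/- library 12. Of 11 regulators of mitochondrial genes, 4, 3, and 6 were tested with 0 at an unadjusted p under 0.05, beside the same shares of all genes. Ppargc1a, the coactivator that drives mitochondrial biogenesis in many tissues, was at 0 in all 13 libraries. Ndufab1, a complex I subunit whose name the rule does not match, was above 0 in 11 libraries at up to 717 TPM, with limma adjusted p-values of 0.993 to 0.997.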

How the data were processed

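The authors trimmed the reads of 3′ RNA-Seq libraries with FASTQ Toolkit and aligned them with STAR to mm10. The deposited values are TPM, in 1 table per mutant that also holds the WT libraries. WT columns were identical in both, so the tables were joined by gene. Which tool, annotation, or strand setting gave the TPM is not given in the sources used here. Read counts were not used here, so precision rests on the spread between mice.

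On the log2(TPM + 1) scale, fits were made in R 4.3.3 with limma 3.58.1 (lmFit, eBayes with trend, 2-sided) over all genes with at least 1 TPM in 3 of 8, 5 of 10, or 3 of 13 libraries, the last in 1 model of all libraries for the mutants against each other. Benjamini-Hochberg adjustment ran over all genes tested, with a threshold of 0.05. Medians and sums over the set carry no test. The script was tested on simulated data. Gene positions are from GENCODE M21, on GRCm38, and copies were searched with BLAST+ 2.17.0.

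The members, the lists beside them, and the tests were chosen with earlier results of these data known. Genes were named for the highest median TPM in a complex, as complex II genes, cytochromes, or isoform families, for the 3 smallest unadjusted p-values in each direction, for groups without overlap, or for being above 0 in all 13 libraries. Atp5j2, Ndufs5, and genes of the other lists were named after their values were seen. Alternatives were median-ratio scaling, quantile normalization, pseudocounts of 0.1 and 10, no filter or one at a mean of 10 TPM, eBayes with robust or without trend, a term for early and late library numbers, other sets of libraries, structural subunits alone, and leaving out each library.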

Additional observations from a re-analysis of the deposited data

Results flagged for a closer look

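A library stood apart from the other 4 of its genotype in 12 of 54 groups of 5 libraries checked, by the ratio of its gap to the range against a critical value of 0.71. Chance flags about 1 in 20 groups of normally distributed values. TPM is skewed to high values, several genes were named for extreme values, and all 12 libraries found were high, so the chance number for these groups is not known. In WT, the summed TPM of complex III was high in library 11 (4520 TPM), as were Uqcrb (528 TPM) and Uqcrc1 (3.03 TPM). In the same genotype, Atp5k (11702 TPM) and Ndufb5 (492 TPM) were high in library 10, and Cox7c (5598 TPM) and Cox4i1 (1272 TPM) in library 2. In Notch1+/-, Atp5o (868 TPM) and Uqcrc1 (160 TPM) were high in library 5, Cox6b2 (60.4 TPM) and Ndufv3 (42.3 TPM) in library 13, and Cox4i1 (183 TPM) in library 12. For Ndufv3, Cox6b2, and Uqcrc1 the other libraries of the genotype were mostly at 0. The 3 Notch1+/dTAD libraries were too few for this check.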

How the results depend on the processing

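The number of subunit genes past an adjusted p of 0.05 was 0 in the 3 comparisons under each of the alternatives, with a lowest adjusted p of 0.0907 among them, for Notch1+/- against WT without WT library 10. Over all genes the number was 0 too in each comparison, except for 15, 2, and 3 genes without the mean-variance trend in Notch1+/dTAD against WT, Notch1+/- against WT, and Notch1+/dTAD against Notch1+/-. Fold changes of the genes named for a low p or a lack of overlap kept their direction in all 385 alternative values. These genes were chosen from the same data for those traits. Groups without overlap cannot change direction when 1 library is left out, so the count was largely fixed in advance and lends no support. When each library was left out, the median log2 fold change ranged from 0.35 to 0.85 for Notch1+/dTAD against WT, from -0.57 to 0.12 for Notch1+/- against WT, and from 0.25 to 1.17 for Notch1+/dTAD against Notch1+/-. The log2 ratio of mean sums ranged from 0.03 to 0.59, from -0.06 to 0.06, and from 0.04 to 0.59 in the same order. Without Atp5k it was -0.02 for Notch1+/dTAD against WT and 0.03 for Notch1+/dTAD against Notch1+/-. For Notch1+/- against WT it was 0.01 with median-ratio scaling and 0.00 for structural subunits alone, against -0.01. Weighting TPM by exon length, an alternative chosen after seeing the data, gave 0.05 for Notch1+/dTAD against WT. The cause was not tested. The counts of subunit genes with an unadjusted p under 0.05 ranged from 0 to 6, from 6 to 16, and from 3 to 7 over the alternatives. As shares of those tested they were 0.0% to 8.22%, 8.33% to 20.8%, and 3.66% to 8.97%. Shares of all genes were 4.2% to 5.81%, 2.54% to 5.51%, and 4.0% to 5.91%. No paired analysis was possible because library numbers are not shared between genotypes. The depth is unknown, and the 3 Notch1+/dTAD libraries limit what could be called.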
